A study of Mus musculus with 11 samples.

Results

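The 6 libraries carrying the labels Wnt9bKO or DKO were ordered by their own level of *Rspo2*, out of 11 libraries in the series. The split was chosen by the *Rspo2* counts themselves, scaled to 1000000 total counts of the library (CPM of total counts). Libraries below 10 were Wnt9bKO 2, DKO 1 and DKO 2 (the low-*Rspo2* libraries, n = 3). Libraries above 10 were Wnt9bKO 1, Wnt9bKO 3 and DKO 3 (the high-*Rspo2* libraries, n = 3). Each library was made from total RNA of facial process explants of mouse embryos of mixed strain at embryonic day 10.5 (E10.5), taken from the mandibular and maxillary arches and the nasal processes. By their labels, the Wnt9bKO embryos were mutant for *Wnt9b*, the Rspo2KO embryos for *Rspo2*, the DKO embryos for both, and the wild-type (wt) embryos for neither. The alleles are described as germline knockouts. All 6 libraries of the split were thus labelled as lacking *Wnt9b*, and by their labels the 3 DKO libraries were also mutant for *Rspo2*. The other 5 libraries, 2 wt and 3 Rspo2KO, took no part in the split.

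R-spondins are secreted proteins that strengthen WNT/β-catenin signaling. They bind LGR receptors and draw the ubiquitin ligases ZNRF3 and RNF43 away from the Frizzled and LRP receptors, which then stay longer at the cell surface. In the face of the embryo, *Rspo2* is made by the neural crest-derived mesenchyme, while *Wnt9b* is made by the overlying ectoderm. *Msx1*, *Msx2*, *Axin2* and *Lef1* are widely used as target genes of the pathway.

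*Rspo2* (ENSMUSG00000051920) lies on chromosome 15 from 43020794 to 43170826 (GRCm38, minus strand). Its level in the low-*Rspo2* libraries was 2.86 (Wnt9bKO 2), 4.37 (DKO 1) and 3.73 (DKO 2) CPM of total counts. In the high-*Rspo2* libraries it was 25.01 (Wnt9bKO 1), 17.8 (Wnt9bKO 3) and 14.2 (DKO 3). The values nearest to the limit of 10 were therefore 4.37 inside the lower set and 14.2 inside the upper set. The 2 wt libraries had 14.9 and 15.8, and the 3 Rspo2KO libraries had 6.66, 4.53 and 4.75. The library labelled Wnt9bKO 2 thus lay below every Rspo2KO library, and the library labelled DKO 3 lay next to wt, so that both went against their labels. The labels were kept, and the counts of genes that follow *Rspo2* are also given without these 2 libraries. *Wnt9b* did not differ in this way, with 16.3 to 23.0 CPM after TMM scaling, the scale used from here on, in the 6 libraries against 10.8 and 13.3 CPM in wt. The counts do not show which exons its reads came from.

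**Figure D1:**
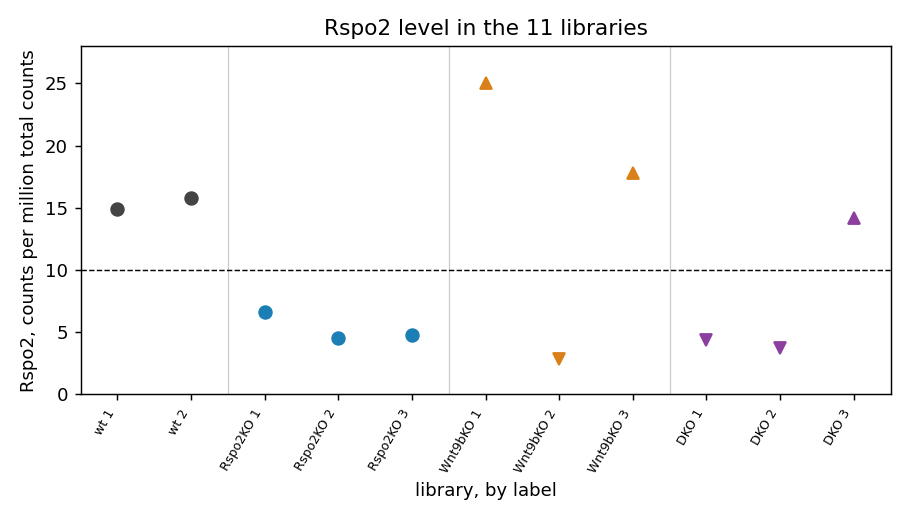
*Rspo2* level (y axis, CPM of total counts) in each of the 11 libraries (x axis, by label). Upward triangles mark the 3 libraries above 10, downward triangles the 3 below 10, circles the 5 libraries outside the split, and the dashed line the limit of 10. Wnt9bKO 2 lies with the Rspo2KO libraries and DKO 3 with wt.

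Total counts of the 6 libraries lay between 15821745 and 18017344, and those of the other 5 between 11136166 and 17455921. TMM factors lay between 0.905 (DKO 3) and 1.11 (Wnt9bKO 1), both of which are high-*Rspo2* libraries. The female transcript *Xist* was at 1.58 to 1.85 CPM in the Wnt9bKO libraries and at 1042 to 1485 CPM in the DKO libraries. It therefore followed the label and crossed the *Rspo2* split, since each side of the split held libraries of both labels. The Y-linked genes set DKO 3 apart, with *Kdm5d* at 3.62 CPM against 0.117 and 0.125 CPM in DKO 1 and DKO 2, *Ddx3y* at 4.48 against 0.0582 and 0.125 CPM and *Eif2s3y* at 3.07 against 0.175 and 0.187 CPM. The Wnt9bKO libraries had 75.3 to 82.5 CPM of *Kdm5d*. DKO 3, the DKO library with a wt level of *Rspo2*, thus held both *Xist* and Y-linked transcripts, and the part of this in the results was not tested. Among wt and Rspo2KO the sexes went with the label (*Xist* at 0.817 to 1.93 CPM in Rspo2KO and at 678 and 900 CPM in wt), so that sex and genotype cannot be told apart in that comparison. The libraries come from tissue rather than sorted cells, and fewer cells of a type and less RNA per cell cannot be told apart.

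A gene was said to follow *Rspo2* when its 3 values in the high-*Rspo2* libraries did not overlap its 3 values in the low-*Rspo2* libraries. The distance between the nearest libraries of the 2 sets, called the gap here, is given as a fold on the CPM scale with a prior count of 2. Of 14857 genes with a mean of at least 1 CPM in the 6 libraries, *Rspo2* left out, 870 (5.86%) were higher and 724 (4.87%) were lower with *Rspo2*. The median gap was 1.04-fold on either side. A gap of at least 1.5-fold was found for 6 genes (0.0404%) on the higher side and for 1 gene (0.00673%) on the lower side. Since the libraries were selected on *Rspo2*, these numbers describe the libraries and no test was made between the 2 sets. Any split of 6 libraries into 3 and 3 leaves some genes without overlap, also genes with no relation to *Rspo2*. To follow *Rspo2* is therefore only a description of the order of the values. How many genes another split would give was not tested. The gene lists below were written with earlier results of these data known, so their shares are not independent of these data. Sums of a list cover all its genes, also those below a mean of 1 CPM. With scaling to total counts alone, 449 genes were higher and 1043 were lower with *Rspo2*, so the balance between the directions depended on the scaling. Of these, 309 and 426 were the same genes as with TMM scaling, and the 25 protein-coding genes with the widest gaps (15 higher and 10 lower) stayed on their side. Leaving out 1 of the 6 libraries relaxes the criterion. It gave 1380 to 2417 genes higher (9.28% to 16.4%) and 1149 to 1743 lower (7.73% to 11.8%). Without both Wnt9bKO 2 and DKO 3, the split coincides with the labels and with *Xist*, and 2155 genes (14.5%) were higher and 2678 (18%) lower. Of these, 53 and 57 were at least 1.5-fold apart.

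The WNT target genes *Msx1* and *Msx2*, which encode homeobox factors of the cranial mesenchyme, were among the 15 protein-coding genes with the widest gap. *Msx1* was at 35.1, 51.7 and 63.6 CPM in Wnt9bKO 2, DKO 1 and DKO 2 and at 134, 91.7 and 96.4 CPM in Wnt9bKO 1, Wnt9bKO 3 and DKO 3, a gap of 1.44-fold. The libraries outside the split gave 137 and 124 CPM in wt and 72.0, 71.6 and 67.3 CPM in Rspo2KO. Wnt9bKO 1 thus lay at the wt level, the other high-*Rspo2* libraries lay between wt and Rspo2KO, and the low-*Rspo2* libraries lay below every Rspo2KO library. In the comparison of Rspo2KO (n = 3) with wt (n = 2), which shares no library with the split, *Msx1* fell by 0.89 on the log2 scale (SE 0.11, adjusted p = 0.00752, edgeR's quasi-likelihood test with Benjamini-Hochberg adjustment). The adjusted p of *Msx1* was 0.122 without wt 1 and 0.134 without Rspo2KO 3 in the same edgeR test, with log2 fold changes of -0.81 and -0.85.

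*Msx2* was at 6.20, 5.71 and 8.68 CPM in the low-*Rspo2* libraries (Wnt9bKO 2, DKO 1, DKO 2) and at 14.9, 14.1 and 12.9 CPM in the high-*Rspo2* libraries (Wnt9bKO 1, Wnt9bKO 3, DKO 3), a gap of 1.48-fold. In wt it was at 10.95 and 11.1 CPM and in Rspo2KO at 9.36, 8.39 and 8.23 CPM. Its 3 Rspo2KO values lay below both wt values, with a log2 difference of -0.35 (SE 0.16) that did not pass (adjusted p = 0.378, edgeR). The level in the high-*Rspo2* libraries was therefore above wt for *Msx2* and at or below wt for *Msx1*.

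The promoters of *Msx1* and of *Dkk1*, a secreted inhibitor whose gene is itself a known target of the pathway, are shown because both genes followed *Rspo2* and lay lower in each Rspo2KO library than in wt. *Dkk1* was chosen for display after its values were seen. Both are RefSeq sequences of 300 bases on GRCm38.p6, read on the strand of the gene, 5′ to 3′. The *Msx1* promoter is at chr5:37824536-37824835 (minus strand) and that of *Dkk1* at chr19:30549447-30549746 (minus strand). Capitals mark CTTTGA or CTTTGT, the core bound by TCF/LEF factors, on either strand.
Msx1: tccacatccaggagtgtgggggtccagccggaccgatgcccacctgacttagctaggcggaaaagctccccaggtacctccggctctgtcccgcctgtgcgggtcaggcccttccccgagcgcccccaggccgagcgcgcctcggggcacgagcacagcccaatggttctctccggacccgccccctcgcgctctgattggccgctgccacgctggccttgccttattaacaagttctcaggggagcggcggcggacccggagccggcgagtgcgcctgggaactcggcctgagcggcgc
Dkk1: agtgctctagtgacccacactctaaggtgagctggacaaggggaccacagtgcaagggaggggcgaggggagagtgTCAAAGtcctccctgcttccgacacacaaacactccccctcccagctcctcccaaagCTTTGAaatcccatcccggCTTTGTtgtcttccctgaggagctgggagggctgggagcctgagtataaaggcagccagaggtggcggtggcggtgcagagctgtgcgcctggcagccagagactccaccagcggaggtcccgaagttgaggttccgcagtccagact
The core occurred 3 times in the *Dkk1* window and not at all in that of *Msx1*. Of 32851 promoters of the same length, 10249 (31.2%) held it. Of the 15 protein-coding genes with the widest gap on the higher side, 9 had a promoter in the table, with 18 promoters in all, of which 4 (22.2%) held the core. A match of these letters is a description of the window only.

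*Dkk1* was at 2.86, 3.15 and 3.68 CPM in the low-*Rspo2* libraries and at 7.56, 6.43 and 5.22 CPM in the high-*Rspo2* libraries, in the order used above, with a gap of 1.40-fold. All 6 lay below the wt values of 11.2 and 9.30 CPM, and the Rspo2KO values of 6.34, 5.31 and 5.22 CPM lay among those of the high-*Rspo2* libraries. Between Rspo2KO and wt the log2 difference was -0.86 (SE 0.18, adjusted p = 0.215, edgeR). The other secreted WNT inhibitors that followed *Rspo2* were *Frzb*, a Frizzled-related decoy, and *Sostdc1*, and 3 of 9 measured inhibitors (33.3%, against 5.86% of all genes) were higher with *Rspo2* and none was lower. With scaling to total counts 1 was higher and 1 lower, beside 3.02% and 7% of all genes. Without Wnt9bKO 2 and DKO 3 it was again 3 and 0, beside 14.5% and 18%. The summed level of the 13 listed inhibitors overlapped, at 298.5 to 348 CPM against 308.9 to 323.5 CPM. In Rspo2KO against wt, 2 of the 9 were lower and 1 was higher at an unadjusted p below 0.05 and over 1.5-fold (edgeR). The shares over all genes were 0.814% lower and 4.51% higher. None passed with adjustment in edgeR's test, while with DESeq2 1 (*Sfrp2*) passed, on the higher side, where 60 of all genes passed.

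Among the 22 measured WNT/β-catenin target genes, 9 were higher with *Rspo2* (40.9%, against 5.86% of all genes) and 3 were lower (13.6%, against 4.87%). These shares are a description only, as the list was written with earlier results of these data known. *Axin2*, a negative feedback component of the pathway, was at 42.8, 49.2 and 48.1 CPM in the low-*Rspo2* libraries and at 74.1, 54.4 and 69.1 CPM in the high-*Rspo2* libraries, a gap of 1.10-fold. Its wt values were 54.9 and 52.7 CPM and its Rspo2KO values were 54.2, 40.7 and 38.8 CPM, a range that overlapped wt. *Lef1*, which encodes a transcription factor that binds β-catenin, was at 24.6, 23.5 and 27.7 CPM against 42.3, 41.0 and 36.4 CPM, a gap of 1.31-fold. For *Lef1* the wt values of 24.0 and 21.9 CPM lay with the low-*Rspo2* libraries rather than the high ones. The other targets higher with *Rspo2* were *Msx1*, *Msx2*, *Twist1*, *Id2*, *Bambi*, *Apcdd1* and *Tnfrsf19*, and those lower were *Sp8*, *Ccnd1* and *Edn1*. The summed level of all 25 listed targets was 1333 to 1474 CPM below and 1586 to 1643 CPM above. It was 1306 and 1410 CPM in wt and 1468, 1308 and 1255 CPM in Rspo2KO, so these 2 groups overlapped. The counts for the 22 targets stayed at 9 and 3 with scaling to total counts, beside 3.02% higher and 7% lower of all genes. Without Wnt9bKO 2 and DKO 3 they were 12 and 3, beside 14.5% and 18% of all genes. In Rspo2KO against wt, 1 of the 22 (*Msx1*) passed the adjusted threshold. At an unadjusted p below 0.05 with a change over 1.5-fold, 2 were lower and 1 was higher, beside 0.814% and 4.51% of all genes (edgeR). *Edn1*, a signal of the mandibular arch, was low throughout, at 1.69 to 2.16 CPM in the low-*Rspo2* libraries and 1.26 to 1.35 CPM in the high ones. The genes *Fgf8*, *Fgf10* and *Bmp4*, which encode growth factors of the facial ectoderm and mesenchyme, overlapped between the 2 sets of libraries. Of these, *Fgf8* was at 10.9 and 7.44 CPM in wt and at 5.66, 6.15 and 4.84 CPM in Rspo2KO, a log2 difference of -0.70 (SE 0.20) that did not pass (adjusted p = 0.268, edgeR). *Axin2*, *Fgf10* and *Bmp4* each overlap a predicted gene, whose reads cannot be told apart from theirs.

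**Figure D2:**
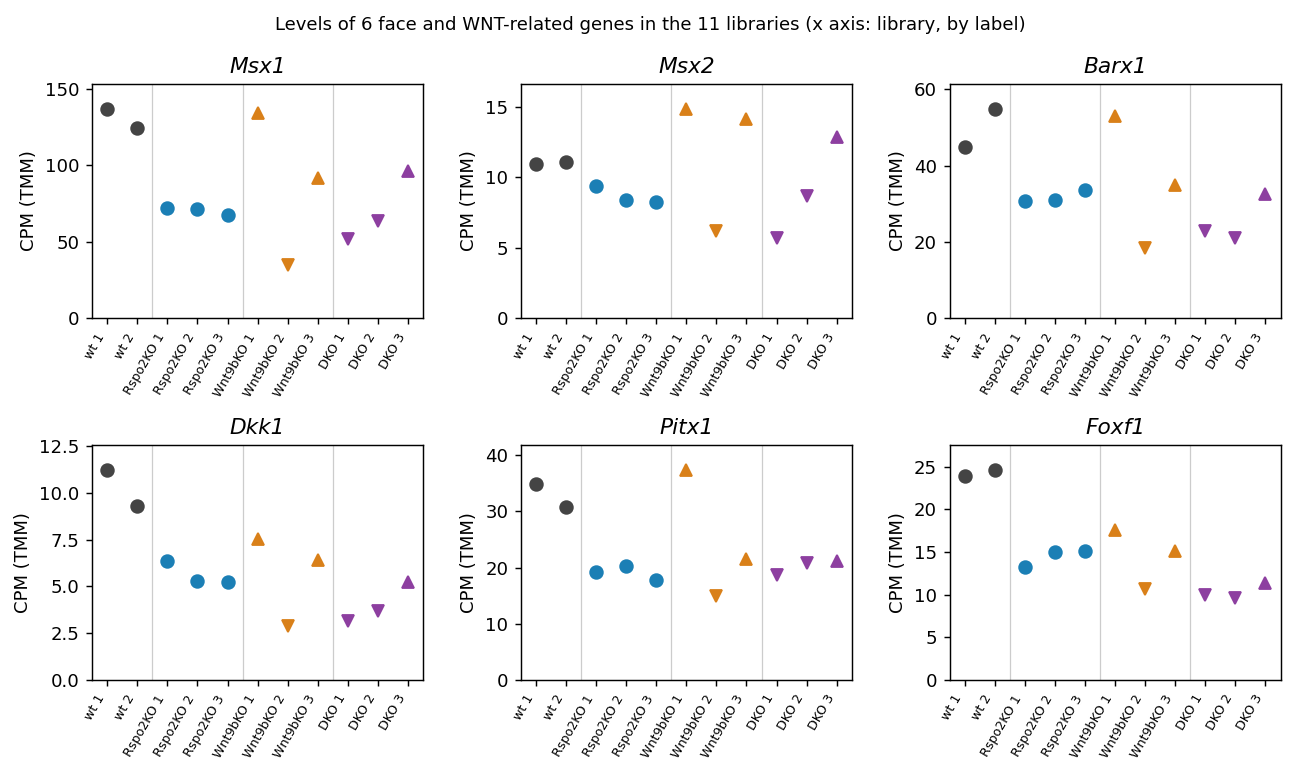
Levels (y axis, CPM after TMM scaling, from 0) of *Msx1*, *Msx2*, *Barx1*, *Dkk1*, *Pitx1* and *Foxf1* in the 11 libraries (x axis, by label). Upward triangles are the high-*Rspo2* libraries, downward triangles the low-*Rspo2* libraries and circles the wt and Rspo2KO libraries. In each panel all 3 upward triangles lie above all 3 downward triangles, with the least room for *Pitx1*, and both wt points lie above all 3 Rspo2KO points.

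Upstream of the targets, the shares of genes higher with *Rspo2* were 13.3% to 22.2% in 4 lists of pathway components, against 5.86% of all genes, and rested on 1 to 4 genes each. Of 6 measured R-spondins and receptors, *Lgr5* was higher with *Rspo2* (gap 1.18-fold) and *Lgr4* lower (1.01-fold). Of 14 WNT ligands, *Wnt6* and *Wnt11* were higher, with gaps of 1.04-fold and 1.36-fold. *Wnt11*, a ligand best known for β-catenin-independent signaling, was scarce, at 0.119 to 0.815 CPM in the low-*Rspo2* libraries and at 1.15 to 4.36 CPM in the high ones. Of 15 Frizzled and LRP receptors, *Fzd6* and *Lrp5* were higher and *Fzd8* was lower. *Fzd8* was at 57.1 to 71.5 CPM in the low-*Rspo2* libraries and at 43.3 to 46.7 CPM in the high ones, and its wt values of 50.7 and 44.7 CPM lay between or among the latter. Of 18 genes of the intracellular cascade, *Dvl3*, *Tcf7l1*, *Bcl9* and *Bcl9l* were higher and *Gsk3a* was lower. With scaling to total counts the Frizzled and LRP list had 0 higher and 2 lower, the ligands 1 and 1, the cascade 4 and 0 and the R-spondin list 1 and 0. Without Wnt9bKO 2 and DKO 3 these lists had 4 and 2, 3 and 2, 6 and 1, and 2 and 1. Over all genes the shares were 3.02% higher and 7% lower with total counts, and 14.5% and 18% without these 2 libraries. In Rspo2KO against wt none of the genes in these 4 lists passed the adjusted threshold in edgeR's test, and at an unadjusted p below 0.05 with a change over 1.5-fold 1 receptor gene (*Fzd6*) was lower and 3 cascade genes were higher, beside 0.814% and 4.51% of all genes. With DESeq2, 1 cascade gene (*Gsk3b*) passed with adjustment, on the higher side, where 60 of all genes passed.

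Patterning genes of the mandibular arch followed *Rspo2* in the largest share of any list with at least 8 measured genes under TMM scaling, but not with scaling to total counts or without Wnt9bKO 1. This list, like the others, was written with earlier results of these data known, so its share is a description only. Of 18 measured, 9 were higher (50%, against 5.86% of all genes), among them *Dlx3*, *Dlx5*, *Hand1*, *Barx1*, *Pitx1*, *Lhx6*, *Lhx8* and *Foxf1*. The only 1 lower was *Edn1* (5.56%, against 4.87% of all genes). With scaling to total counts 4 of 19 were higher, against 9 of the 22 WNT targets and 3.02% of all genes. Without Wnt9bKO 1 it was 9 of 18 against 12 of 22, beside 16.4% of all genes. Without Wnt9bKO 2 and DKO 3, 13 of 19 were higher, beside 14.5% of all genes. *Barx1*, a homeobox gene of the mandibular mesenchyme, was at 18.5, 22.9 and 21.1 CPM in the low-*Rspo2* libraries and at 52.9, 35.0 and 32.5 CPM in the high-*Rspo2* libraries, a gap of 1.42-fold. It was at 44.9 and 54.9 CPM in wt and at 30.7, 31.1 and 33.6 CPM in Rspo2KO. Its log2 difference in Rspo2KO against wt was -0.65 (SE 0.13) and did not pass in edgeR's test (adjusted p = 0.182), but passed with DESeq2 (adjusted p = 0.00885). *Pitx1*, which marks the lower jaw field, was at 15.02, 18.7 and 20.8 CPM in the low-*Rspo2* libraries and at 37.3, 21.5 and 21.1 CPM in the high-*Rspo2* libraries. The 2 sets of *Pitx1* values came within 1.02-fold of each other, with Wnt9bKO 1 alone at the wt level of 34.9 and 30.9 CPM. *Foxf1*, a forkhead factor of the mesenchyme, was at 10.7, 9.96 and 9.61 CPM and at 17.5, 15.1 and 11.4 CPM in the low- and high-*Rspo2* libraries, all below the wt values of 23.9 and 24.6 CPM. *Lhx8*, a LIM homeobox gene of the jaw mesenchyme, was at 12.7 to 23.4 CPM against 26.0 to 37.0 CPM, also below the wt values of 42.5 and 40.8 CPM.

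The summed level of all 19 genes of the mandibular list was 203 to 247 CPM in the low-*Rspo2* libraries and 276 to 402 CPM in the high-*Rspo2* libraries. Rspo2KO had 233 to 262 CPM and wt 307 and 308 CPM. In Rspo2KO against wt none of the 18 passed the adjusted threshold in edgeR's test, and at an unadjusted p below 0.05 with a change over 1.5-fold 6 were lower (*Hand1*, *Hand2*, *Barx1*, *Pitx1*, *Foxf1* and *Rgs5*) and none was higher, against 0.814% of all genes lower. The number lower was between 3 and 7 over the alternative fits. With DESeq2, 4 of the list fell at the adjusted threshold (*Barx1*, *Pitx1*, *Foxf1* and *Rgs5*) and none rose. Over all genes, 18 fell and 60 rose with DESeq2 at that threshold. Of 18 measured genes of the upper face, by comparison, 1 was higher with *Rspo2* (*Pax3*, a neural crest gene, 5.56% against 5.86% of all genes). The summed level of the upper face list was 955 to 994 CPM against 976 to 999 CPM.

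Of 32 measured genes of the branchial arch and face mesenchyme, 12 were higher with *Rspo2* (37.5%, against 5.86% of all genes) and 3 were lower (9.38%, against 4.87%). With scaling to total counts 8 were higher and 0 lower, beside 3.02% and 7% of all genes. Without Wnt9bKO 2 and DKO 3 it was 13 and 3, beside 14.5% and 18% of all genes. *Osr1*, an odd-skipped zinc finger factor, was at 1.55, 4.25 and 3.25 CPM in the low-*Rspo2* libraries and at 13.8, 7.10 and 9.57 CPM in the high-*Rspo2* libraries, a gap of 1.65-fold. The wt values of *Osr1*, 4.81 and 7.08 CPM, lay between the sets, and overlapped the Rspo2KO values of 3.83 to 5.28 CPM. *Tbx2*, a T-box repressor, was at 27.2 to 38.3 CPM against 48.5 to 84.9 CPM (gap 1.26-fold), and the paired-type homeobox genes *Prrx1* and *Prrx2* were also higher, with gaps of 1.09-fold and 1.23-fold. The 3 that were lower were forkhead genes, *Foxc1*, *Foxc2* and *Foxd1*, with gaps of 1.03-fold to 1.04-fold that were lost with scaling to total counts. At the unadjusted threshold in Rspo2KO against wt, 2 of the 32 were lower (*Tfap2c* and *Osr2*) and 2 were higher (*Pax9* and *Sox9*). The shares over all genes were 0.814% lower and 4.51% higher. None of the 32 passed with adjustment in edgeR's test, against 1 (*Tfap2c*, lower) with DESeq2, where 18 of all genes fell. Some of these genes stand in more than 1 list.

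The widest gap of all was that of *Krt14*, a keratin of basal epithelial cells, at 0.775, 2.68 and 2.81 CPM in the low-*Rspo2* libraries and at 13.0, 5.46 and 5.58 CPM in the high-*Rspo2* libraries (1.90-fold). In wt it was at 8.91 and 9.18 CPM and in Rspo2KO at 5.89, 6.52 and 5.97 CPM, so that the lowest and the highest level of all 11 libraries were both in libraries labelled Wnt9bKO. Its log2 difference in Rspo2KO against wt was -0.56 (SE 0.16, adjusted p = 0.268, edgeR). *Smoc2*, which encodes a secreted matrix protein, came next, at 3.64, 6.52 and 5.62 CPM in the low-*Rspo2* libraries and at 16.3, 11.6 and 12.4 CPM in the high ones (1.76-fold). It was at 11.9 and 14.95 CPM in wt and at 7.62, 6.46 and 6.60 CPM in Rspo2KO, so each set with low *Rspo2* lay below each set with high *Rspo2* across all 11 libraries. Its log2 difference in Rspo2KO against wt was -0.97 (SE 0.17) and missed the adjusted threshold in edgeR's test (adjusted p = 0.118), while it passed with DESeq2 (adjusted p = 0.00884) and without Rspo2KO 1. *Vegfd*, a growth factor for lymphatic and blood vessels, was at 1.37 to 1.69 CPM against 2.73 to 3.09 CPM (1.57-fold), and *Tmem59l* at 2.15 to 3.20 CPM against 5.34 to 8.45 CPM (1.64-fold). The predicted gene *Gm11032* (1.64-fold) overlaps *Gm11961*, and reads of the 2 cannot be told apart because the strand setting of the counting is not given.

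The remaining genes among the 15 had gaps of 1.42-fold to 1.48-fold. They included *Ptprr*, a receptor tyrosine phosphatase gene that overlaps *4933416C03Rik*, *Bdnf*, a neurotrophin, *Smad9*, a mediator of BMP signaling, *Dok5* and *Snai2*, a repressor expressed in neural crest, with *Msx1*, *Msx2* and *Barx1* described above. *Snai2* was at 5.60 to 7.86 CPM in the low-*Rspo2* libraries and at 11.4 to 11.95 CPM in the high ones. Its wt values of 6.23 and 6.12 CPM and 2 of its Rspo2KO values, 5.73 and 5.91 CPM, lay with the low-*Rspo2* libraries, and Rspo2KO 1 stood apart at 10.3 CPM. Of the 15 genes, 12 (80%) had a log2 fold change below 0 in Rspo2KO against wt, as did 48.7% of all genes tested, and the median was -0.35 against 0.01. In 9 of the 15 all Rspo2KO values lay below both wt values, as they did in 16.2% of all genes tested. At the unadjusted threshold with a change over 1.5-fold 4 were lower (*Smoc2*, *Vegfd*, *Msx1* and *Barx1*), beside 0.814% of all genes, and 1 passed with adjustment (*Msx1*, edgeR). *Vegfd* lies on the X chromosome, and the sexes went with the label in this comparison.

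**Figure D3:**
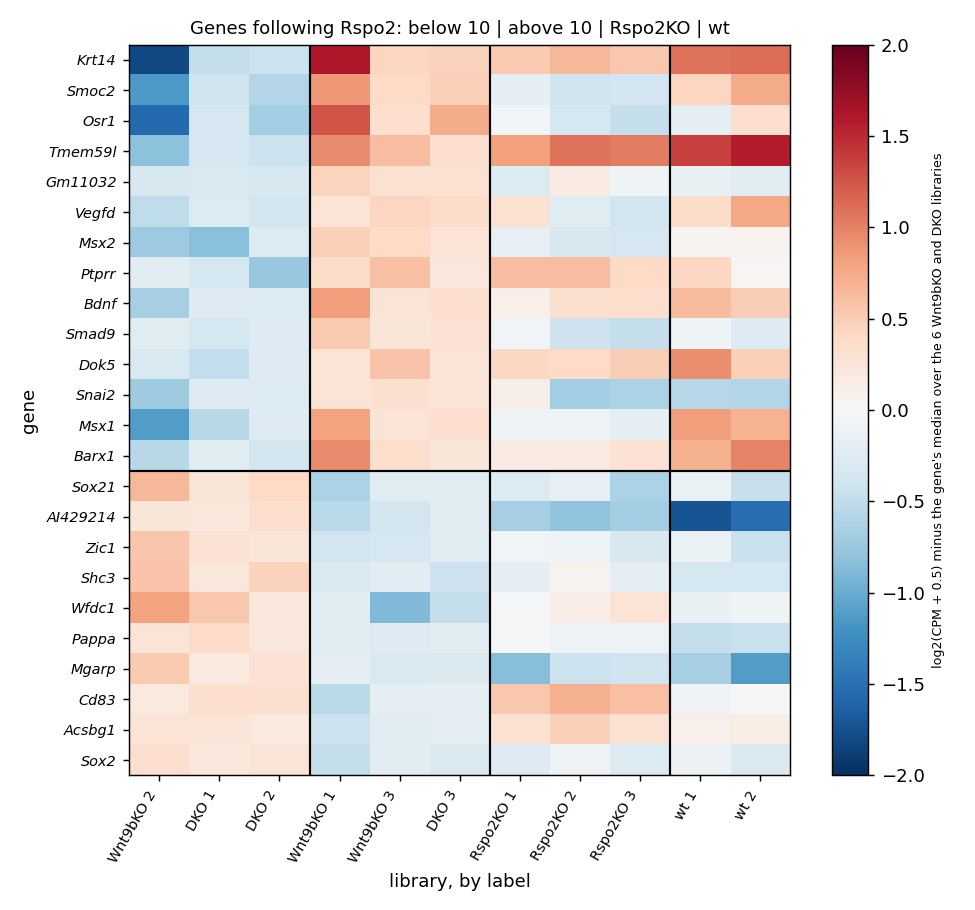
Of the 15 protein-coding genes with the widest gap on the higher side, 14 are drawn (above the horizontal line), with the 10 on the lower side, by library. Color is log2(CPM + 0.5) minus the gene's median over the 6 Wnt9bKO and DKO libraries, from -2 (blue) to 2 (red), and vertical lines part the low-*Rspo2*, high-*Rspo2*, Rspo2KO and wt libraries. The color step between the first and the second block comes from the choice of the genes, while the Rspo2KO and wt blocks were not used for it.

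On the lower side, *Sox2* and *Sox21*, which encode SOX factors of neural and placodal progenitors, and *Zic1*, a zinc finger gene of the dorsal neural tube and the eye region, were among the 10 protein-coding genes with the widest gap (1.34-fold to 1.41-fold for all 10). *Sox2* was at 110.0, 100.9 and 104 CPM in the low-*Rspo2* libraries and at 62.3, 75.1 and 71.2 CPM in the high-*Rspo2* libraries. Both wt values (79.9 and 71.3 CPM) and all Rspo2KO values (72.4, 81.2 and 71.9 CPM) of *Sox2* lay near the high-*Rspo2* libraries. *Zic1* was at 108, 90.2 and 87.6 CPM against 56.7, 58.6 and 62.3 CPM, and in wt and Rspo2KO it ranged from 53.9 to 70.8 CPM. *Sox21* was at 17.7 to 24.0 CPM against 9.40 to 12.5 CPM, and ranged from 9.43 to 13.5 CPM in Rspo2KO and wt. The Rspo2KO libraries thus had low *Rspo2* without the higher levels of these 3 genes, and none of them passed in Rspo2KO against wt (adjusted p = 0.998 for *Sox2*, 0.690 for *Zic1* and 0.936 for *Sox21*, edgeR). *Zic1* overlaps *Zic4*, and *Sox21* overlaps *Gm4675*.

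The other genes of the 10 were *AI429214*, *Shc3*, an adaptor of neuronal receptors, *Wfdc1*, *Pappa*, a protease that cleaves IGF-binding proteins, *Mgarp*, *Cd83* and *Acsbg1*. *Pappa* was at 27.1, 29.5 and 26.4 CPM in the low-*Rspo2* libraries and at 19.2, 18.9 and 19.2 CPM in the high-*Rspo2* libraries. It was at 16.0 and 16.5 CPM in wt and at 22.2, 21.1 and 20.9 CPM in Rspo2KO (log2 difference 0.40, SE 0.13, adjusted p = 0.294, edgeR). *AI429214* was at 4.19 to 4.56 CPM against 2.26 to 2.95 CPM, and at 0.712 and 0.900 CPM in wt against 1.81 to 2.04 CPM in Rspo2KO. In 6 of the 10 genes all Rspo2KO values lay above both wt values, as they did in 17.4% of all genes tested, and 2 (*AI429214* and *Cd83*) were higher at the unadjusted threshold, beside 4.51% of all genes. None of the 10 passed with adjustment in edgeR's test or with DESeq2.

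Markers of other cell types and tissues in the explants also differed between the sets. The summed level of 13 erythroid genes was 1813 to 2107 CPM in the low-*Rspo2* libraries and 2442 to 2960 CPM in the high-*Rspo2* libraries, and *Hbb-y*, *Hbb-bh1* and *Alas2* were higher with *Rspo2*. The erythroid sum ranged from 4626 to 5878 CPM in Rspo2KO and was 4030 and 4987 CPM in wt, so it did not follow *Rspo2* there. Of 13 measured forebrain and eye genes, only *Otx2* was lower with *Rspo2* (7.69%, against 4.87% of all genes) and none was higher. The sum of all 14 listed was 229 to 330 CPM in the low-*Rspo2* libraries and 182 to 223 CPM in the high ones. It was 156 to 180 CPM in Rspo2KO and 131 and 155 CPM in wt. *Sox2*, *Zic1* and *Sox21* moved in the same direction as this sum. Their relation to the share of neural tissue in the explants was not tested. Of 18 genes of the surface epithelium, 5 were higher with *Rspo2* (*Krt14*, *Trp63*, *Grhl3*, *Perp* and *Wnt6*) and none was lower. However, the sums of the 18 overlapped (355 to 393 CPM against 370 to 434 CPM). With scaling to total counts only 1 was higher, beside 3.02% of all genes. The sums of the neuronal, glial, endothelial, macrophage and muscle lists overlapped between the 2 sets of libraries, with 1 of 19, 1 of 8, 0 of 12, 0 of 12 and 0 of 4 genes higher and 0, 1, 2, 0 and 0 lower. Of 24 cell cycle genes 1 was higher, of 16 apoptosis and p53 genes 1, of 17 hypoxia and glycolysis genes none, and of 14 immediate early and heat shock genes 2, with 0, 0, 1 and 1 lower. Of 26 genes of the FGF and BMP pathways, 3 were higher and 3 lower. All these counts under TMM scaling stand beside 5.86% higher and 4.87% lower over all genes. Without Wnt9bKO 2 and DKO 3, 1 of 19 neuronal genes was higher and 11 were lower, and 4 of 13 forebrain and eye genes and 4 of 8 glial genes were lower. In that setting 6 of 13 erythroid and 6 of 18 surface epithelium genes were higher, and 3 of 18 upper face genes were higher and 4 lower. Over all genes, 14.5% were higher and 18% lower in that setting, and the upper face list lay near these shares.

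**Figure D4:**
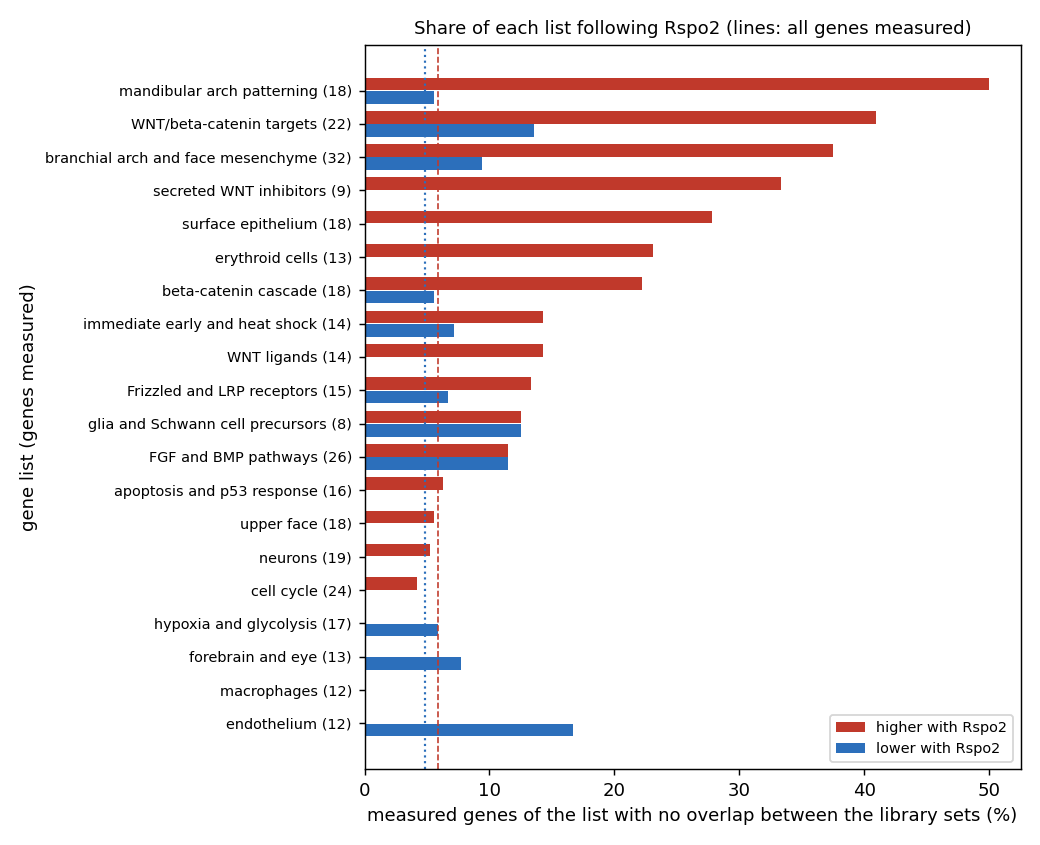
Share of the measured genes of each list (x axis, %) that were higher (red bars) or lower (blue bars) with *Rspo2*, without overlap between the 2 sets of libraries, for lists with at least 8 measured genes, whose number stands in parentheses. The dashed and the dotted line give the shares over all 14857 genes, 5.86% higher and 4.87% lower. The mandibular arch list reaches 50%, the WNT target list 40.9% and the upper face list 5.56%. The lists were written with earlier results of these data known.

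Rspo2KO against wt was then compared over the whole set of followers, as this comparison uses none of the 6 libraries. Of 16223 genes tested, 3 (0.0185%) fell and 5 (0.0308%) rose with an adjusted p below 0.05 and a change over 1.5-fold, *Rspo2* left out. Among these, 1 that fell (*Xist*) and 4 that rose (*Kdm5d*, *Uty*, *Ddx3y* and *Eif2s3y*) are sex-linked. Sex and genotype cannot be told apart in this comparison. At an unadjusted p below 0.05 and the same fold, 132 (0.814%) were lower and 732 (4.51%) were higher in Rspo2KO (edgeR). Of the 866 tested genes that were higher with *Rspo2*, 23 (2.66%) were lower in Rspo2KO at the unadjusted threshold, a larger share than over all genes. However, 73 of them (8.43%) were higher in Rspo2KO, against the direction, which is also a larger share than over all genes, and 408 (47.1%) had a log2 fold change below 0, close to the 48.7% of all genes. Of the 720 tested genes that were lower with *Rspo2*, 27 (3.75%) were higher and 5 (0.694%) lower in Rspo2KO, both near the shares of all genes. As a whole, the followers thus had a median log2 fold change of 0.02 (higher with *Rspo2*) and 0.03 (lower with *Rspo2*) in Rspo2KO against wt.

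These counts rested on single libraries. Without Rspo2KO 1, 320 genes were higher at the unadjusted threshold in place of 732, and 14 of the genes lower with *Rspo2* in place of 27. Without wt 2, 256 genes were lower in place of 132. With the adjusted threshold, between 1 and 27 genes fell and between 5 and 26 rose when 1 of the 5 libraries was left out, the largest numbers being those without wt 2. The library wt 1 stood apart in the sum of cardiac and striated muscle genes, at 139 CPM against 33.2 CPM in wt 2 and 32.9 to 37.9 CPM in Rspo2KO, and the part of this difference in the comparison was not tested. *Rspo2* itself fell by 1.52 on the log2 scale in Rspo2KO (SE 0.18, adjusted p = 0.00752, edgeR).

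Besides *Msx1* and *Rspo2*, the only autosomal genes past the adjusted threshold in Rspo2KO against wt were the pseudogene *Eif3s6-ps2* and *Rpl30*, and both followed *Rspo2* in the 6 libraries in the same direction. *Eif3s6-ps2* (ENSMUSG00000091697, chromosome 18 from 90310868 to 90312190, GRCm38) is a processed pseudogene of *Eif3e*, a translation initiation factor gene that lies next to *Rspo2* on chromosome 15 from 43250058 to 43282719. It had 0 and 1 reads in the wt libraries and 157, 240 and 202 reads in the Rspo2KO libraries. The ratio of its reads to total counts, with libraries pooled, was 360 (95% exact interval 64.3 to 14230, which covers counting error only), and its adjusted p was 1.21e-06 in edgeR's test. In the low-*Rspo2* libraries (Wnt9bKO 2, DKO 1, DKO 2) it was at 10.9, 11.5 and 13.9 CPM, within or near the Rspo2KO range of 11.9 to 14.48 CPM. In the high-*Rspo2* libraries (Wnt9bKO 1, Wnt9bKO 3, DKO 3) it was at 4.73, 6.25 and 7.06 CPM, between wt and Rspo2KO, with a gap of 1.53-fold. The library labelled DKO 3 thus differed from the other DKO libraries, and Wnt9bKO 2 from the other Wnt9bKO libraries, in this pseudogene as in *Rspo2*. *Eif3e* itself overlapped between the sets, with 222 to 295 CPM in Rspo2KO and 313 and 368 CPM in wt. Reads of a gene and its processed copy can be assigned to either, so the values of both are uncertain.

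*Rpl30*, a ribosomal protein gene on chromosome 15 that starts at -8.58 Mb from the start of *Rspo2*, was at 384 and 307 CPM in wt and at 146, 185 and 182 CPM in Rspo2KO, a fall of 1.01 on the log2 scale (SE 0.14, adjusted p = 0.0279, edgeR). Without wt 1 or without Rspo2KO 3 the adjusted p of *Rpl30* was 0.251 and 0.161. In the 6 libraries it was at 204, 181 and 197 CPM against 211, 240 and 346 CPM, and the nearest libraries were 1.03-fold apart. *Rpl30* overlaps the snoRNA gene *Gm24523*. The level in DKO 3 was near that of wt, whereas the other 5 libraries lay nearer to Rspo2KO. Of 55 measured genes that start within 10 Mb of *Rspo2*, 8 were higher with *Rspo2* (*Fzd6*, *Lrp12*, *Osr2*, *Spag1*, *Rgs22*, *Trps1*, *Cthrc1* and *Rpl30*, 14.5% against 5.86% of all genes) and 4 were lower (*Laptm4b*, *Azin1*, *Klf10* and *Tspyl5*, 7.27% against 4.87%). In Rspo2KO against wt 6 of the 55 were lower and 6 were higher at the unadjusted threshold, 10.9% on either side, beside 0.814% of all genes lower and 4.51% higher. None of the 10 measured genes within 2 Mb of *Rspo2* followed its level, and over the whole of chromosome 15 it was 31 higher and 30 lower of 541 measured. *Laptm4b*, a lysosomal membrane protein gene at -8.78 Mb, was at 60.9 and 71.1 CPM in wt and at 103, 124 and 116 CPM in Rspo2KO (log2 difference 0.80, SE 0.12, adjusted p = 0.0589, edgeR), and the nearest libraries of the split were 1.02-fold apart.

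**Figure D5:**
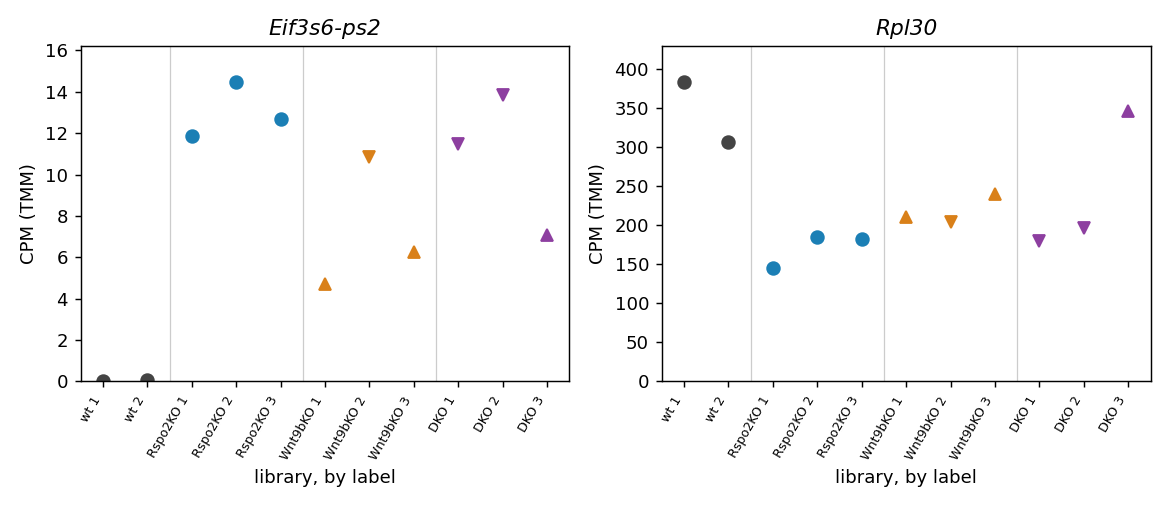
Levels (y axis, CPM after TMM scaling, from 0) of *Eif3s6-ps2* and *Rpl30* in the 11 libraries (x axis, by label), with upward triangles for the high-*Rspo2* libraries, downward triangles for the low-*Rspo2* libraries and circles for wt and Rspo2KO. *Eif3s6-ps2* is at or near 0 in wt, at 4.73 to 7.06 CPM in the high-*Rspo2* libraries and at 10.9 to 14.48 CPM in the low-*Rspo2* and the Rspo2KO libraries. *Rpl30* is at 346 CPM in DKO 3, among the wt values.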

How the data were processed

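Facial process explants of E10.5 embryos were profiled by RNA-seq in 11 libraries. The authors deposited raw counts, the number of reads assigned to each Ensembl gene, without normalization. By the methods of the study, single-end reads of 50 bp were trimmed with Cutadapt, reads under 30 bp were discarded, the rest were mapped to GRCm38 with STAR and counted with HTSeq-Count. Versions and the strand setting are not given in the sources used here. The methods state 3 samples per genotype, while 2 wt libraries were analysed here.

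Of 38561 genes, 36639 matched the GRCm38 annotation. CPM were scaled by TMM over all libraries (R 4.3.3, edgeR 4.0.16). Libraries labelled Wnt9bKO or DKO were split at 10 *Rspo2* counts in 1000000 total counts and described without a test. Genes with a mean of at least 1 CPM in these 6 libraries were ranked by the difference between the nearest libraries in log2 CPM (prior count 2). The 15 protein-coding genes higher and the 10 lower with the widest gap were named, together with genes past the adjusted threshold, the target genes the study names and members of hand-written lists. Other list members were chosen after their values were seen. The values of 2 genes are not reported here. The members and lists were chosen with earlier results of these data known.

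Rspo2KO was compared with wt by edgeR's quasi-likelihood test, two-sided, on these 5 libraries, with filterByExpr and Benjamini-Hochberg adjustment over all genes. A call needed p below 0.05 and over 1.5-fold. The labels do not state whether replicates were separate embryos, and p-values then measure only the spread between these libraries. On simulated data for this comparison (15960 genes), 27 of 67 genes changed 1.5-fold, 58 of 67 changed 2-fold and 65 of 66 changed 4-fold were recovered, with 16 false calls. Many more genes were changed there than passed in the data, which loosens the adjusted threshold. The shares recovered therefore do not carry over to the data. DESeq2 1.42.0, other scalings, filters and prior counts, the replicate number as a block, the fit to all 11 libraries and leaving out libraries were alternatives. Leaving out both Wnt9bKO 2 and DKO 3 was added after the data were seen. Figures were drawn with matplotlib 3.10.9.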

Additional observations from a re-analysis of the deposited data

How the results depend on the processing

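The 25 protein-coding genes with the widest gaps (15 higher and 10 lower) kept their side with RLE factors and with total counts. The other alternatives to the split could hardly change that side, by their construction. Genes without overlap (higher, then lower) numbered 449 and 1043 with total counts, 1373 and 1195 without a filter and 2101 and 1874 within each label. Genes at least 1.5-fold apart numbered 3 and 3 with total counts, 3 higher under a minimum mean of 5 CPM, 37 and 13 without a filter, 27 and 12 within each label, and 0 lower among autosomal protein-coding genes. Leaving out 1 of the 6 libraries gave 1380 to 2417 higher and 1149 to 1743 lower, with 14 to 26 and 7 to 14 at least 1.5-fold apart. Leaving out both Wnt9bKO 2 and DKO 3, chosen after seeing the data, gave 2155 and 2678, with 53 and 57 at least 1.5-fold apart. The last 2 changes follow in part from fewer libraries having to be separated.

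In Rspo2KO against wt, genes called (adjusted lower and higher, then unadjusted lower and higher) numbered 18, 60, 67 and 479 with DESeq2 and 74, 438, 238 and 965 without a filter. The adjusted counts were 2 and 1 with at least 10 counts in every library, 1 and 5 with all 11 libraries, 1 and 0 among autosomal protein-coding genes and 16 and 71 with the replicate number as a block. Leaving out 1 library gave 1 to 27 and 5 to 26 adjusted, and 92 to 256 and 320 to 1017 unadjusted. The cause of these differences was not tested. Deviations from the group mean were uncorrelated between libraries of the same number (-0.0024 and -0.0032 for the 2 shared numbers). With 2 wt libraries the wt deviations mirror each other, so these values cannot exclude a pairing.

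Followers called in the matching direction at the adjusted threshold numbered 3, and 10 with DESeq2, 30 without a filter, 8 with the block, 1 each with at least 10 counts, with all 11 libraries and among autosomal protein-coding genes, and 1 to 6 when a library was left out. Genes lower with *Rspo2* and higher in Rspo2KO at the unadjusted threshold numbered 17 with DESeq2, 16 under a minimum mean of 5 CPM, 57 within each label, 14 to 69 when a library was left out and 141 without both Wnt9bKO 2 and DKO 3, against 27. Of the genes higher with *Rspo2*, 12 were lower in Rspo2KO under a minimum mean of 5 CPM.

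Log2 fold changes in Rspo2KO against wt that reversed were those of *Snai2* (-0.090 to 0.39 over leaving out each library), *Sox21* (-0.22 to 0.12, and 0.084 with the replicate block), *Zic1* (-0.019 to 0.31), *Edn1* (-0.19 to 0.90) and *Sox2* (-0.083 to 0.082, 0.0025 with at least 10 counts and 0.031 with the replicate block), none of which passed in the main fit. The adjusted p of *Msx1* was 0.338 with all 11 libraries, and that of *Rpl30* was 0.0547 with at least 10 counts, 0.182 with all 11 libraries and 0.0699 among autosomal protein-coding genes (edgeR).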
